A study of Sus scrofa with 12 samples.

Results

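The matrix metalloproteinases MMP2, MMP9, MMP11, MMP14, MMP19 and MMP23B and the tissue inhibitors of metalloproteinases TIMP1, TIMP2, TIMP3 and TIMP4 were followed across the border and remote zones of the injured pig heart. The 10 genes were listed by name as members of these families, with earlier results of these data known. Symbols were matched to the Ensembl gene identifiers of the count files, which hold 35682 genes. Of the 10 genes, 9 were matched, 6 metalloproteinases and 3 inhibitors, and TIMP2 was not analysed here.

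Poly(A) RNA was sequenced in 12 libraries from 6 animals, each of which gave a border and a remote sample. Female Yorkshire pigs aged 10 to 12 weeks underwent 60 minutes of balloon occlusion of the left anterior descending coronary artery, followed by reperfusion. From day 9 after injury every animal received tacrolimus at 0.75 mg/kg, mycophenolate mofetil at 500 mg and prednisolone at 20 mg per day. On day 14 the animals were given either vascular organoids fixed with fibrin glue, or fibrin glue alone. The organoids, of human endothelial progenitor cells and smooth muscle cells, were laid over the infarct and the border zone around it. Hearts were collected 28 days later. Border zone tissue was cut next to the visible infarct, and remote zone tissue came from the posterior wall. The labels do not say which animal received organoids, so each region holds animals of both treatments and the treatments were not compared. In animals given organoids the border zone also differed from the remote zone by lying under the graft. Region and contact with the graft cannot be told apart in those animals. The animals are called here by the number in their labels.

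Matrix metalloproteinases are zinc enzymes that cut collagens and other proteins of the extracellular matrix. Most are made as inactive proenzymes, and TIMPs bind the active site and block it. In the injured heart the balance of enzymes and inhibitors is known to act on scar formation and on the widening of the ventricle. RNA levels do not measure enzyme activity, since activation and inhibition take place on the protein.

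The sequences ahead of the gene starts are shown for MMP2 and MMP9, the 2 gelatinases. The motifs searched on both strands were TGANTCA, a binding motif of the AP-1 factors (FOS and JUN proteins), which reads the same on both strands, and GGGCGG, the GC box bound by SP1. Over the 250 bases before the RefSeq gene start in Sscrofa11.1, TGANTCA occurred in 5.27% and GGGCGG in 45.9% of 19569 pig promoters. MMP9 held 2 matches to TGANTCA, the nearer beginning 69 bases before the gene start, and both are in capitals, with its 1 GGGCGG in lower case, in its 250 bases (chr17:48179440-48179689, plus strand).
MMP9: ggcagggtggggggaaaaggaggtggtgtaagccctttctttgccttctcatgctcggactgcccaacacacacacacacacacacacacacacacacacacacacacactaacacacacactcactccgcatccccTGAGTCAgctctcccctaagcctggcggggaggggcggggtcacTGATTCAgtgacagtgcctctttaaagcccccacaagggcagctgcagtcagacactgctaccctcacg
In the last 100 bases before the MMP2 gene start (chr6:30087032-30087131, minus strand) there were 6 matches to GGGCGG or its reverse complement, some of them overlapping, shown in capitals, and its 250 bases held no TGANTCA.
MMP2: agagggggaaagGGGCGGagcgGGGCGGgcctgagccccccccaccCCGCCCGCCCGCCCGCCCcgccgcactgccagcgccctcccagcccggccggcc
Among the other genes analysed, MMP19 and TIMP4 held 1 match to TGANTCA each, 11 and 12 bases before the gene start, shown in capitals with the bases around it.
MMP19: tctctgggcTGAGTCAcctc
TIMP4: ctttttgccTGAATCAcagtc
The remaining 5 genes, MMP11, MMP14, MMP23B, TIMP1 and TIMP3, held no TGANTCA in this window. GGGCGG was not particular to MMP2, since MMP11 and TIMP3 held 4 matches each, MMP14 held 2 and MMP23B 1, while MMP19, TIMP1 and TIMP4 held 0. A match is a run of letters and not a measured binding site, and for TIMP1 the RefSeq gene model is marked as partial, so its true start may lie elsewhere.

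Total counts ran from 15130210 to 30526110 in the border zone and from 20091415 to 31618680 in the remote zone, and 13844 genes passed the filter on low counts. Levels are given as CPM (counts per 1000000 counts) after scaling by TMM factors. Mitochondrially encoded genes took 5.69% to 17.3% of border zone and 13.6% to 33.5% of remote zone counts. The summed level of 5 cardiomyocyte markers was 6733 to 42135 CPM in the border zone and 31838 to 61512 CPM in the remote zone, and each of the 6 animals had less of it in the border zone, so heart muscle RNA was present in every library. Border zone libraries of 2 animals stood apart. That of animal 1022 had the lowest cardiomyocyte sum and the highest smooth muscle sum (2576 CPM, against 544 to 810 CPM in the other border zone libraries). Most of that smooth muscle sum came from ACTA2 and TAGLN, which reached 927 and 1084 CPM in the border zone. MYH11 reached 309 CPM, CNN1 163 CPM and SMTN 264 CPM there. In the remote zone ACTA2, TAGLN, MYH11 and CNN1 reached at most 94.5, 146, 63.9 and 91.2 CPM, while SMTN was higher, at 184 to 325 CPM. The border library of animal 3622 listed 28024 genes, where the other 11 libraries listed 16932 to 20148. It did so with the lowest total count of all libraries, 15130210. Among the remote zone libraries that of animal 3622 had the largest mitochondrial share, 33.5% against 21.4% in the next, and the lowest TMM factor, 0.671. In bulk tissue, fewer cells of a type and less RNA per cell cannot be told apart.

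The comparison of the border zone with the remote zone asked how the heart next to the infarct differs from distant myocardium of the same animals. MMP2 and TIMP1 rose in the border zone, MMP2 by 2.27 ± 0.49 and TIMP1 by 2.22 ± 0.48 (log2 fold change ± SE). MMP14, MMP19, MMP23B and TIMP3 had positive and MMP11 a negative fold change that did not pass the threshold, and TIMP4 had a fold change of -0.0029. Thus 2 of the 8 genes tested passed an adjusted p of 0.05 in edgeR (quasi-likelihood test, Benjamini-Hochberg adjustment over all genes), where 2.07% of all genes passed. MMP9 did not pass the filter on low counts and was described from its counts. The median log2 fold change of the 8 genes was 1.27, and that of all genes tested was 0.04. With a term for the animal in the model, 1 of the 8 genes passed, MMP11, where 0.296% of all genes passed. Without the border library of animal 1022, 3 of the 8 genes passed (MMP2, MMP14 and TIMP1) and their median log2 fold change over all 8 was 0.74. In that fit 307 of 13951 genes tested passed. Without both libraries of animal 1022, MMP2 alone passed, beside 163 of 13831 genes tested. Without both libraries of animal 1323, 1623, 1922 or 3622, 0 of the genes passed in edgeR, where 0 to 15 of all genes passed. In these fits 6 or 7 of the genes described had an unadjusted p under 0.05, as did 2448 to 3104 of the 13745 to 14008 genes tested. The count was 5 with DESeq2's Wald test, where 1678 of 30085 genes passed. It was also 5 with library totals for scaling, where 1551 of 13844 genes passed. In edgeR with no filter on low counts it was 0, where 139 of 30085 genes passed. There 7 of the genes described and 7776 of all genes had an unadjusted p under 0.05.

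**Figure D1:**
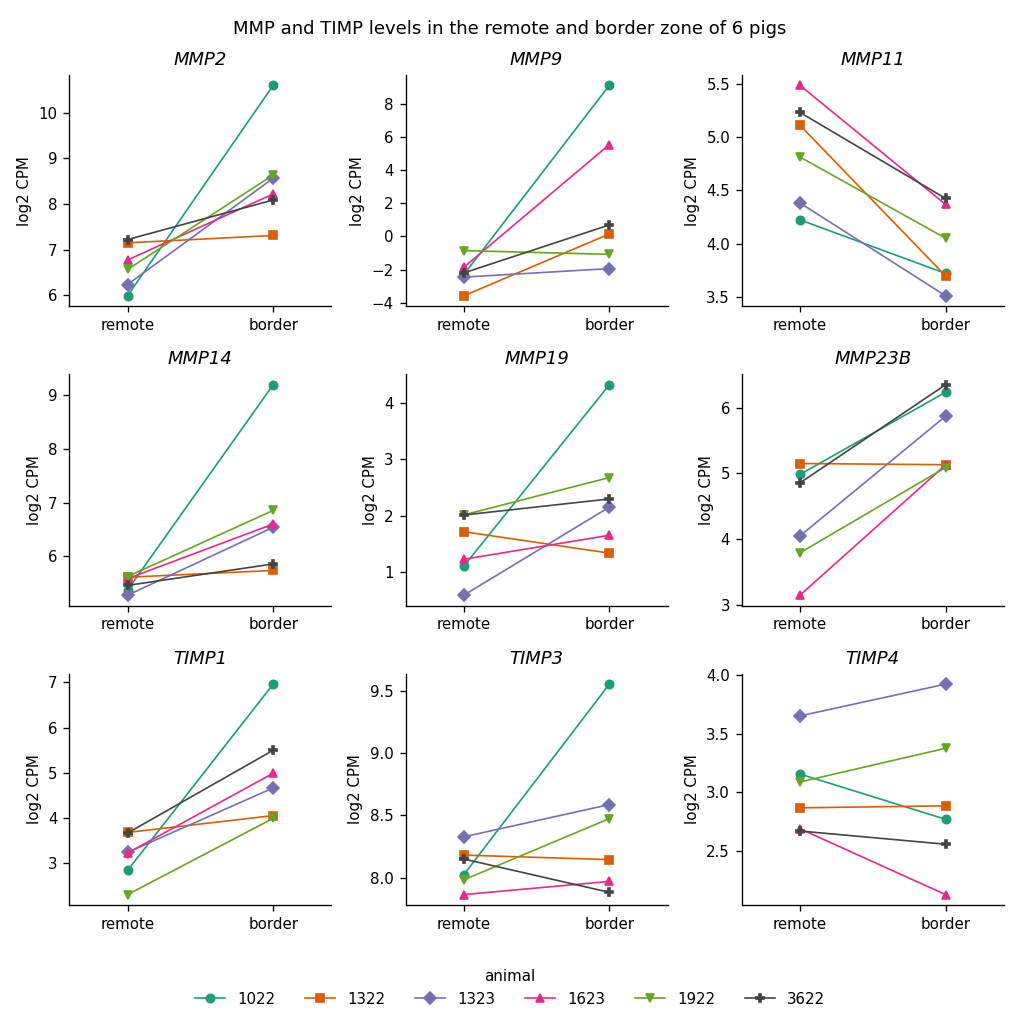
Level (log2 CPM, prior count of 2) of the 9 genes in the remote and border zone, with a line per animal and a separate vertical scale per panel. MMP2, MMP14 and TIMP1 go up and MMP11 goes down in all 6 animals, and the border library of animal 1022 holds the highest value of MMP2, MMP9, MMP14, MMP19, TIMP1 and TIMP3.

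Counted by animal, 3 genes had a higher border than remote level in each of the 6 pigs (MMP2, MMP14 and TIMP1), as did 11.7% of all genes tested. These 3 genes also had every border zone library above every remote library, which held for 1.99% of all genes tested. MMP11 had a lower border than remote level in each of the 6 pigs, as did 11.1% of all genes tested. MMP9, MMP19 and MMP23B were higher in 5 of 6 animals, TIMP3 in 4 and TIMP4 in 3.

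MMP2 encodes gelatinase A, a secreted enzyme that cuts denatured collagen and the type IV collagen of basement membranes (chromosome 6, 30059247 to 30087031). In the border zone it ranged from 158 to 1552 CPM with a median of 338 CPM, and in the remote zone from 63.3 to 149 CPM with a median of 102 CPM. The groups did not overlap, although the lowest border zone library (animal 1322) lay close above the highest remote library (animal 3622). Scaled by library totals in place of TMM factors, they did not overlap either, with a lowest border value of 156 CPM and a highest remote value of 117 CPM. Within animals the border zone level was 24.5 times the remote zone level in animal 1022, 5.03 times in animal 1323, 4.20 times in animal 1922, 2.73 times in animal 1623, 1.83 times in animal 3622 and 1.12 times in animal 1322. The size of the difference therefore varied widely between animals that shared its direction. The adjusted p in edgeR was 0.0338, and with the animal term the log2 fold change was 1.85 with an adjusted p of 0.0895. Without the border library of animal 1022 the log2 fold change was 1.51 with an adjusted p of 0.0111, and without that of animal 3622 it was 2.40 with an adjusted p of 0.0472.

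MMP14 encodes the membrane-anchored enzyme that cuts fibrillar collagen and, together with TIMP2, activates the MMP2 proenzyme at the cell surface (chromosome 7, 76174502 to 76185931). It ranged from 53.2 to 588 CPM in the border zone, with a median of 95.04 CPM, and from 38.6 to 49.2 CPM in the remote zone, with a median of 45.9 CPM. The remote zone libraries lay close together, and the border library of animal 1022 stood far above the other border zone libraries. The fitted log2 fold change was 1.90 ± 0.53 with an adjusted p of 0.0680 in edgeR. Without that library it was 0.89 ± 0.20 with an adjusted p of 0.0346, and without both libraries of animal 1022 it was 0.87 with an adjusted p of 0.0802, so the estimate became smaller and its call depended on which libraries were left out. With the animal term it was 1.24 with an adjusted p of 0.118.

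MMP9 encodes gelatinase B, the second gelatinase, which neutrophils, macrophages and osteoclasts carry (chromosome 17, 48179690 to 48186782). In the border zone 16644 counts were found in animal 1022, 1349 in animal 1623, 25 in animal 3622, 21 in animal 1322, 8 in animal 1922 and 6 in animal 1323. In the remote zone the counts were 9 in animal 1922, 5 in animal 1623, 3 in animals 1022 and 1323, 2 in animal 3622 and 0 in animal 1322. A remote library thus never held more than 9 reads, and 91.8% of the summed border zone level lay in the library of animal 1022. The median border zone level was 1.28 CPM and the median remote zone level 0.126 CPM. The within-animal difference in log2 CPM was positive in 5 of 6 animals, with a median of 3.31 and a mean of 4.29. An exact two-sided sign-flip permutation test of the mean gave p = 0.0625, where the smallest p that 6 animals allow is 0.03125.

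The levels of MMP9 ran beside markers of other cells. The summed level of 6 osteoclast-like markers was 1660 CPM for animal 1022 and 229 CPM for animal 1623 in the border zone, the same libraries that held most MMP9 reads. In the other border zone libraries this sum was 20.6 to 35.2 CPM, and in the remote zone 12.2 to 19.3 CPM. Most of it came from CTSK and ACP5, enzymes that macrophages also make, which reached 956 and 646 CPM, while ATP6V0D2 reached 38.8 CPM, CALCR 10.9 CPM, DCSTAMP 7.60 CPM and OCSTAMP 1.12 CPM in the border zone, and these 4 markers stayed at or below 0.527 CPM in the remote zone. The 6 macrophage markers summed to 1150 CPM for animal 1022 in the border zone and to 94.0 to 259 CPM in the other border zone libraries, against 88.9 to 176 CPM in the remote zone. Of the neutrophil markers, 4 of 6 were matched, their sum was 0.777 to 8.76 CPM in the border zone and 1.11 to 2.30 CPM in the remote zone, and MPO had at most 1 count in any library. The highest neutrophil sums were again those of the border libraries of animals 1022 (8.76 CPM) and 1623 (3.85 CPM). CSF3R, the receptor of granulocyte colony-stimulating factor, reached 7.40 CPM in the border zone and at most 0.713 CPM in the remote zone. The other matched markers did not follow it. ELANE was 0.324 to 1.75 CPM in the border zone and 0.624 to 1.54 CPM in the remote zone, and S100A8 was at most 0.489 CPM in any library. The high values of animal 1022 were not limited to these lists, since its border library also had the highest lymphocyte sum (22.5 CPM, against 3.41 to 13.1 CPM in the other border libraries), mast cell sum (32.7 against 9.59 to 16.9 CPM) and smooth muscle sum. The part of these cells in the MMP9 level was not tested.

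**Figure D2:**
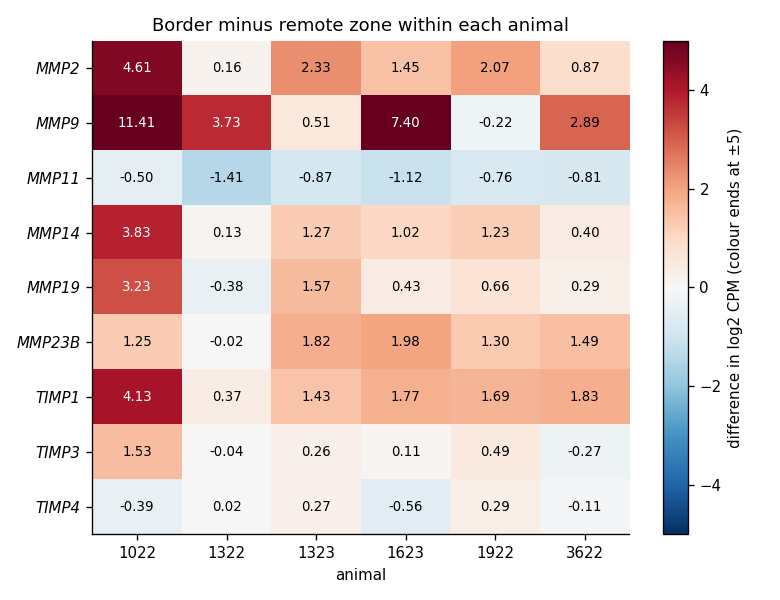
Difference in log2 CPM between the border and remote zone of each animal (columns) for the 9 genes (rows), written in each cell, with red for higher and blue for lower in the border zone. Animal 1022 has the largest MMP2, MMP9, MMP14, MMP19, TIMP1 and TIMP3 differences, and animal 1322 the smallest MMP2, MMP14 and TIMP1 differences.

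MMP11 encodes stromelysin-3, which furin activates inside the cell before secretion (chromosome 14, 49907684 to 49917494). It ranged from 11.3 to 21.4 CPM in the border zone, with a median of 14.8 CPM, and from 18.6 to 44.7 CPM in the remote zone, with a median of 31.2 CPM. It was the only gene of the 9 with a lower border zone level in every animal, although the groups overlapped. The within-animal difference in log2 CPM lay between -1.41 in animal 1322 and -0.50 in animal 1022. The log2 fold change was -0.94 ± 0.24 with an adjusted p of 0.0530 in edgeR, and with the animal term it was -0.91 ± 0.14 with an adjusted p of 0.0476. MMP11 was also the only one of the 8 genes that passed with the animal term. With library totals for scaling the log2 fold change was weaker, -0.64 with an adjusted p of 0.110 in edgeR. On that scale the border and remote levels were close in animal 1022 (17.0 and 18.5 CPM) and animal 3622 (23.1 and 25.1 CPM).

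MMP23B encodes a small membrane-tethered metalloproteinase that lacks the hemopexin domain of most relatives (chromosome 6, 63801668 to 63804275). It ranged from 34.0 to 81.5 CPM in the border zone, with a median of 46.8 CPM, and from 8.77 to 35.5 CPM in the remote zone, with a median of 22.7 CPM. The ranges overlapped by a narrow margin, but with library totals for scaling they did not, with a lowest border value of 34.5 CPM and a highest remote value of 31.3 CPM. In 5 animals the within-animal difference in log2 CPM was 1.25 to 1.98, and in animal 1322 it was -0.02. In edgeR the log2 fold change was 1.24 ± 0.35 with an adjusted p of 0.0724, and 1.32 ± 0.25 with an adjusted p of 0.0668 with the animal term. Unlike the MMP2 and MMP14 values, the highest border zone level was in animal 3622 and not in animal 1022, and without the border library of animal 3622 the log2 fold change was 1.08.

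MMP19 encodes a secreted enzyme that cuts basement membrane proteins (chromosome 5, 21279514 to 21285943). It ranged from 2.43 to 20.0 CPM in the border zone, with a median of 4.59 CPM, and from 1.42 to 3.95 CPM in the remote zone, with a median of 2.72 CPM. Apart from the border library of animal 1022, the groups overlapped. The log2 fold change was 1.30 ± 0.48 with an adjusted p of 0.132 in edgeR, and without that library it was 0.59.

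TIMP1 encodes a soluble inhibitor whose gene is induced by injury and growth factors and which binds the MMP9 proenzyme (chromosome X, 42103251 to 42106289). It ranged from 15.8 to 125 CPM in the border zone, with a median of 28.4 CPM, and from 4.83 to 12.7 CPM in the remote zone, with a median of 9.27 CPM. The groups did not overlap, and the level was higher in the border zone of each animal. The border zone level was 17.7 times the remote zone level in animal 1022 and 1.297 times in animal 1322, and in the other animals it was 2.71 to 3.58 times as high. The adjusted p of the rise was 0.0338 in edgeR, and with the animal term the log2 fold change was 1.84 with an adjusted p of 0.0773. Without the border library of animal 1022 the log2 fold change was 1.52 with an adjusted p of 0.0204, but without both libraries of that animal it was 1.45 with an adjusted p of 0.0569. Without the border library of animal 3622 it was 2.20 with an adjusted p of 0.0583. TIMP1 lies within SYN1 on the opposite strand, and the 2 genes share 0 exon bases in RefSeq.

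TIMP3 encodes the inhibitor that stays bound to the extracellular matrix and also blocks ADAM17 (chromosome 5, 12185816 to 12242599). It ranged from 236 to 752 CPM in the border zone, with a median of 319 CPM, and from 233 to 321 CPM in the remote zone, with a median of 272 CPM. All libraries but the border library of animal 1022 lay in a narrow band. The fitted change on the log2 scale was 0.46 ± 0.27 with an adjusted p of 0.296 in edgeR, and it was 0.14 without that library.

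TIMP4 encodes an inhibitor known for its expression in the heart (chromosome 13, 68179803 to 68191199). It ranged from 4.29 to 15.1 CPM in the border zone, with a median of 7.02 CPM, and from 6.28 to 12.5 CPM in the remote zone, with a median of 7.82 CPM. The groups overlapped over nearly their whole range, and animal 1323 had the highest level in both zones. The log2 fold change was -0.0029 ± 0.29 with an adjusted p of 0.996 in edgeR, and its sign changed with the scaling and with the samples kept. TIMP4 lies within SYN2 on the opposite strand and shares 90 exon bases with it, and since the libraries were not strand-specific, reads there cannot be told apart. SYN2 itself was at 0.172 to 1.68 CPM in the border zone and 0.0520 to 0.494 CPM in the remote zone.

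**Figure D3:**
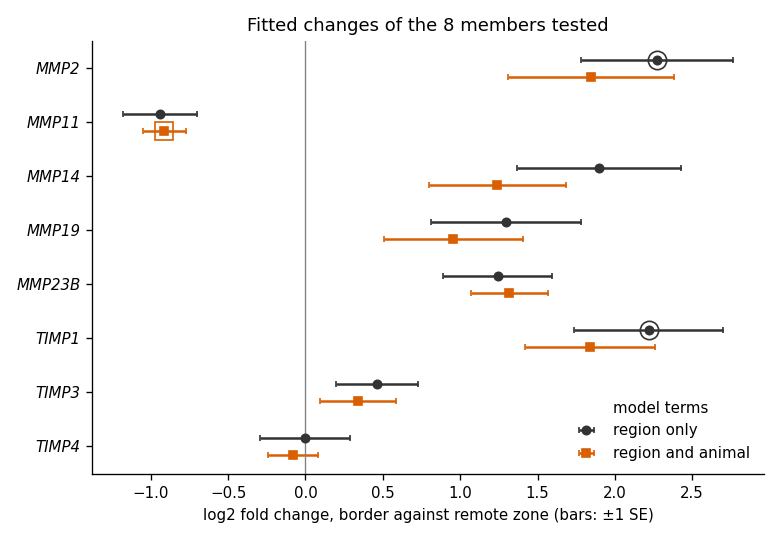
Log2 fold change of the border against the remote zone for the 8 genes tested (horizontal axis, bars of 1 SE each way), from edgeR with region only (black circles) and with region and animal (orange squares), with a larger ring or square around values whose adjusted p was under 0.05. MMP2 and TIMP1 pass with region only and MMP11 with region and animal.

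To compare genes with each other, the CPM were divided by the exon length of each RefSeq gene model in kilobases. On this scale MMP2 had the highest median in the border zone, 109.7 RPKM, followed by TIMP3 with 69.0, TIMP1 with 39.7, MMP23B with 30.0 and MMP14 with 23.3. MMP19, MMP11, TIMP4 and MMP9 had far lower medians, of 1.99, 1.83, 1.21 and 0.554 RPKM. For MMP9 the median hides a wide spread, with 239 RPKM in the border library of animal 1022 and 20.1 RPKM in that of animal 1623. In the library of animal 1022 MMP9 came below MMP2 (504 RPKM) and above TIMP1 (174 RPKM). Between neighbours in this border zone order the ranges were separate for MMP14 over MMP19 alone, so the other neighbours did not differ beyond their spread. In the remote zone TIMP3 came first with 58.8 RPKM and was above MMP2, with 33.1, in all 6 animals and with no overlap of their ranges. Below them MMP23B had 14.6, TIMP1 13.0, MMP14 11.3, MMP11 3.86, TIMP4 1.35, MMP19 1.18 and MMP9 0.0548 RPKM. The ranges were also separate for MMP14 over MMP11, MMP11 over TIMP4 and MMP19 over MMP9. MMP2 was above TIMP3 in 5 of 6 border zone libraries, with overlapping ranges. The TIMP1 value rests on a partial gene model of 716 exon bases. The MMP11 value depends on the length used, since with its median transcript length it was 3.91 RPKM in the border zone and 8.24 RPKM in the remote zone. The remote zone separation of MMP14 over MMP11 holds for the exon length only, as MMP14 had a remote median of 11.9 RPKM with its median transcript length.

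Ratios of 2 genes within a library do not depend on the scaling of that library, and they are given as a description. The ratio of MMP2 to TIMP3 in CPM had a median of 1.14 in the border zone and 0.422 in the remote zone, went up from remote to border in 6 of 6 animals, and did not overlap between the zones (lowest border zone value 0.560, highest remote zone value 0.525). The ratio of MMP14 to TIMP3 had medians of 0.286 and 0.164, and it too went up in 6 of 6 animals, though its ranges overlapped. The ratio of the inhibitors TIMP1 to TIMP3 had medians of 0.0960 and 0.0344, higher in 6 of 6 animals. The ratio of MMP2 to TIMP1 behaved differently, with medians of 11.04 and 11.49 and a higher border zone value in 3 of 6 animals. The MMP2 difference exceeded that of its activator MMP14 in every animal, and the MMP2 to MMP14 ratio had medians of 3.25 and 2.11. The 6 metalloproteinases summed, against the 3 inhibitors summed, gave medians of 1.51 in the border zone and 0.782 in the remote zone. This ratio, without TIMP2 in the sum, was higher in 6 of 6 animals, but in animal 1322 only by 0.858 against 0.850. The zones overlapped, with a highest remote zone value of 0.870. The sums are of CPM not divided by gene length. MMP2 made up 27.8% to 42.2% of the summed CPM of the 9 genes of the border libraries and 14.6% to 26.3% in the remote libraries, and TIMP3 20.4% to 49.6% and 50.1% to 64.8%.

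**Figure D4:**
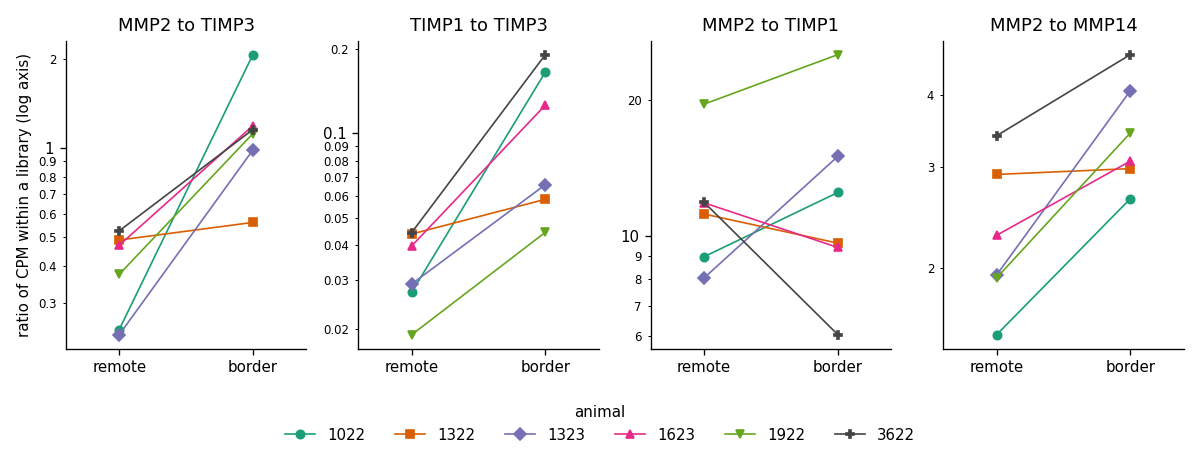
Ratio of the CPM of 2 genes within a library (log axes, a scale per panel) in the remote and border zone, with a line per animal. The MMP2 to TIMP3, TIMP1 to TIMP3 and MMP2 to MMP14 ratios go up from remote to border in all 6 animals, and the MMP2 to TIMP1 ratio is higher in 3 and lower in 3.

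MMP14 and TIMP1 are the biochemical partners of MMP2 and MMP9, and the within-animal differences of the 2 pairs were related over the 6 animals. For MMP2 and MMP14, Pearson's r was 0.979 (exact two-sided permutation p = 0.00139, adjusted over the 2 pairs 0.00278) and Spearman's rho 1 (exact p = 0.00278, adjusted 0.00556). Without animals 1022 and 1322, the farthest from the median MMP2 difference, r was 0.946. The relation was not particular to the pair, since MMP14 ranked 156 among the 13843 genes compared with MMP2 by this r, below COL3A1 among others. For MMP9 and TIMP1, r was 0.704 (exact permutation p = 0.135) and rho 0.486 (exact p = 0.356), with the same values after adjustment. Without animals 1022 and 1623 that r was -0.576. It was -0.0234 without animal 1022 alone and 0.766 without animal 1623 alone, so it rested on animal 1022.

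**Figure D5:**
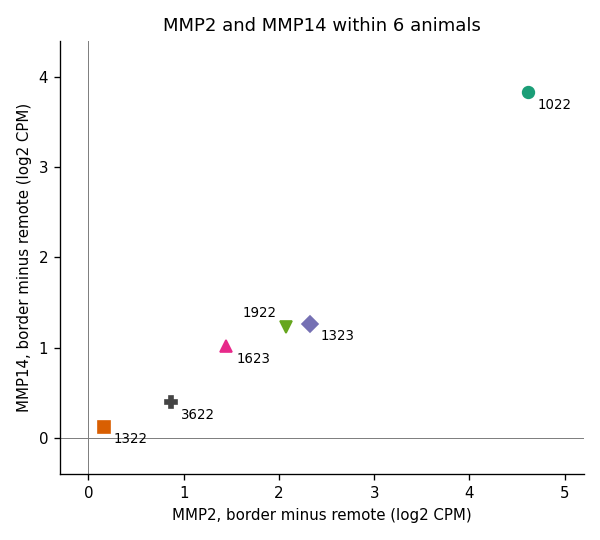
Difference between the border and remote zone in log2 CPM for MMP2 (horizontal axis) and MMP14 (vertical axis), with a point per animal. The animals keep the same order on both axes, from animal 1322 at the lower left (0.16 and 0.13) to animal 1022 at the upper right (4.61 and 3.83).

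Over the 12 libraries, the genes with the highest Pearson r of log2 CPM with MMP2 were the fibrillar collagen genes COL5A1 (0.992), COL3A1 (0.990) and COL1A1 (0.987). With MMP9 they were SPP1 (0.975), the gene of osteopontin, and ACP5 (0.965). With TIMP1 they were ANXA2 (0.985), SLC43A2 (0.985) and CLEC11A (0.981), and with TIMP4 they were LYAR (0.918), METTL24 (0.898) and SAFB2 (0.896). The 12 points share animals and regions and include the border library of animal 1022, so these values describe likeness only.

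A further list of 44 genes of the same system held other metalloproteinases, activators and carriers, other inhibitors, matrix substrates and inducers. Of these genes 38 were matched and 25 tested. In edgeR 7 rose and 0 fell at an adjusted p of 0.05, beside the 2.07% of all genes that passed. At an unadjusted p under 0.05, 18 rose and 0 fell, beside 3425 of all 13844 genes tested in either direction. None of the 5 other metalloproteinases, 5 activators and carriers and 4 inducers tested passed, with 3, 4 and 1 of them at an unadjusted p under 0.05. In DESeq2's Wald test 1, 4 and 1 of them passed, beside 1678 of 30085 genes. Among the other inhibitors 2 of 4 rose. SERPINE2, which encodes a serine protease inhibitor that blocks plasminogen activators, rose by 1.72 ± 0.25 on the log2 scale (adjusted p = 0.0107 in edgeR, 0.0209 with the animal term). RECK, a membrane-anchored inhibitor of metalloproteinases, rose by 1.30 ± 0.29 (adjusted p = 0.0382 in edgeR, 0.0703 with the animal term and 0.0588 without the border library of animal 3622). SERPINE2 was the only gene of the list that passed with the animal term.

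Of the 7 matrix substrates 5 rose, FN1 (fibronectin) by 5.09 on the log2 scale, COL1A1 by 4.05, COL1A2 by 3.27, COL3A1 by 2.98 and ELN (elastin) by 2.46. Their adjusted p in edgeR was 0.0276 to 0.0421, and 0.0748 to 0.0901 with the animal term. ELN did not pass in edgeR with DESeq2's size factors (adjusted p = 0.0506) or with at least 10 counts required in every library (0.0515), and DESeq2's Wald test gave FN1 no adjusted p. The size of these changes rested in part on the border library of animal 1022, where FN1 reached 7553 CPM against a border zone median of 293 CPM. Without that library the log2 fold changes were 2.76 for FN1, 2.49 for COL1A1, 2.09 for COL1A2, 2.14 for COL3A1 and 1.46 for ELN, and all 5 still passed in edgeR, with adjusted p of 0.00110 to 0.0119. Without both libraries of animal 1323, 1623 or 3622, 0 genes of the list passed in edgeR. There 15 to 17 of them had an unadjusted p under 0.05, as did 2448 to 2738 of the 13745 to 13858 genes tested. Without the libraries of animal 1922 SERPINE2 alone passed, and with no filter on low counts COL3A1 and SERPINE2 passed. The summed level of 8 fibroblast and matrix markers, 3 of them these collagens, was 2873 to 59137 CPM in the border zone and 993 to 2531 CPM in the remote zone. It was higher in 6 of 6 animals, and 7 of the 8 passed the test, beside 2.07% of all genes. The part of fibroblast number in the MMP2, MMP14 and TIMP1 levels was not tested.

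Each of the 14 other metalloproteinases matched had at least 1 count, the fewest being MMP20 with 1. MMP12, macrophage elastase, was named after its values were seen. It had 1645 counts, 1314 of them from the border zone of animal 1022, 316 from that of animal 1623 and 4 in the remote zone libraries together, the same pair of border zone libraries that held most MMP9 reads.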

How the data were processed

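RNA was sequenced from the border and remote zone of 6 pigs, 1 library per zone and animal. The deposited values are unscaled read counts for each Ensembl gene. For these the authors checked 150-base paired reads of nondirectional poly(A) libraries with FastQC 0.12.1 and MultiQC 1.17, aligned them to Sscrofa11.1 (annotation of Ensembl release 113) with STAR 2.7.10a and counted with featureCounts 2.16.1. The handling of reads that match several genes is not given in the sources used here. Region and animal came from the sample titles. The treatment of each animal is not in the labels and was neither used nor read from the values.

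Counts were scaled with TMM factors, filtered with filterByExpr on region and tested with edgeR 4.0.16 (R 4.3.3, robust quasi-likelihood fit, region as the only term), with Benjamini-Hochberg adjustment over all 13844 genes tested. Log2 CPM used a prior count of 2. Same-numbered libraries come from the same animal, so the animal was a block in an alternative fit. The correlation of their deviations from the zone means was -0.03 to 0.57, over 0.1 in 4 of 6 animals. Lengths, positions and sequences came from RefSeq on Sscrofa11.1, and all 9 genes analysed matched. DESeq2 1.42.0 was an alternative. The procedure was tested on simulated data. SciPy 1.17.1 gave ranks and adjusted values, and exact permutation tests enumerated every arrangement.

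The genes, the lists of related and marker genes, and the tests were chosen with earlier results of these data known. All listed genes were named, with related genes that passed the threshold and, for MMP2, MMP9, TIMP1 and TIMP4, the 3 most correlated genes, of which 1 for MMP9 is not reported here. TIMP2 had no identifier in the name table used and was not analysed here, so the pair of MMP2 with TIMP2 was not related. Total counts were 15130210 to 31618680 per library, and counting error is largest for genes with few reads, such as MMP9 in the remote zone.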

Additional observations from a re-analysis of the deposited data

Results flagged for a closer look

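Among 45 groups of 6 values examined (each gene in each zone, each within-animal difference and each marker sum), 5 had a value far from the other 5 by Dixon's criterion, where chance gives about 1 in 20 groups. MMP14 in the border zone of animal 1022 was at 9.20 log2 CPM, and the nearest other border library was at 6.86. The within-animal MMP14 difference of the same animal was 3.83 on the log2 scale, and the nearest was 1.27. The within-animal MMP23B difference of animal 1322 was -0.0182, and the nearest was 1.25. The summed cardiomyocyte markers in the border zone of animal 1022 were at 12.7 on the log2 scale, below the nearest at 14.6. The summed smooth muscle markers in the same library were at 11.3, above the nearest at 9.66. So 4 of the 5 values belong to animal 1022, and the part of its tissue makeup in the MMP14 level was not tested.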

How the results depend on the processing

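The counts of calls were recomputed under 15 other settings, and 120 fold changes of the 8 genes were recomputed: 90 kept their direction and their side of the threshold, 8 passed it newly, 14 no longer passed and 8 changed sign, all 8 of TIMP4. With the animal as replicate block, 41 genes passed in place of 287, 1 of the 8 genes described (MMP11) in place of 2, and 1 related gene (SERPINE2) in place of 7. The MMP14, MMP19, MMP23B, TIMP3 and TIMP4 calls did not change under the block. With DESeq2's Wald test 1678 genes passed (1388 higher and 290 lower, against 285 and 2 in edgeR), 5 of the 8 (MMP2, MMP11, MMP14, MMP23B, TIMP1) and 14 related genes. With library totals in place of TMM factors 1551 genes passed, 5 of the 8 (MMP2, MMP14, MMP19, MMP23B, TIMP1) and 15 related genes. Under that scaling the median gene tested had a log2 fold change of 0.32 in place of 0.04, which shifts the fold changes given here, and the remote zone median of MMP14 went from 5.52 to 5.34 log2 CPM. With no filter on low counts 139 genes passed, 0 of the 8 and 2 related genes. With at least 10 counts in every library 149 genes passed. Without the border library of animal 3622, 156 genes passed and 1 of the 8 (MMP2), and without that of animal 1022, 307 and 3. Leaving out each animal in turn gave 0 to 519 genes, 0 to 2 of the 8 and 0 to 8 related genes. Animals 1623 and 3622 each left 0 genes when left out, with 2662 and 2448 genes at an unadjusted p under 0.05 in edgeR, against 3425 with all animals. Without animals 1323 and 1922, 3 and 15 genes passed and 0 of the 8. DESeq2 was not run on these subsets. The cause was not tested.

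The log2 fold change of TIMP4 was -0.15 to 0.0711 with an animal left out (0.0684, 0.0711 and 0.0133 without animals 1022, 1623 and 3622), 0.26 with library totals, 0.0261 with at least 10 counts in every library, 0.0053 without mitochondrial genes, and 0.0486 and 0.0791 without the border library of animal 1022 or 3622. The r of MMP2 with MMP14 was 0.976 to 0.990 with each animal left out, 0.978 with library totals and 0.979 with a prior count of 0.5. That of MMP9 with TIMP1 was -0.0234 to 0.833, with the lowest value without animal 1022. With the median RefSeq transcript length in place of the exon length, an alternative added after seeing the data, MMP11 came above MMP19 in the border zone, with medians of 3.91 and 1.99 RPKM. Low read numbers limit MMP9, which did not pass the filter over all 12 libraries and in the unfiltered edgeR fit had a log2 fold change of 9.13 ± 2.46 with an adjusted p of 0.127.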

Other observations

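Metalloproteinases with few reads were spread unevenly over the libraries. All 13 counts of MMP1 were in the border library of animal 1022. All 4 counts of MMP27 and 5 of the 6 counts of MMP3 were in the border library of animal 3622. That library listed the most genes and had the lowest total count. MMP8, the neutrophil collagenase, had 12 counts in all, 6 of them in that library and 1 in the remote zone libraries together. MMP25 had 142 counts, of which the border libraries of animals 1022, 3622 and 1623 held 42, 29 and 17, with 28 in the remote zone libraries together. These genes were named after their values were seen.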
